A study of Rattus norvegicus with 16 samples.

Results

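The 44 genes described here drive or mark cell division: cyclins and their kinase, DNA replication proteins, enzymes that supply nucleotides, the spindle checkpoint, mitotic kinases, spindle and cytokinesis proteins, and proteins of dividing chromosomes. They were chosen by symbol, and every probe set annotated with 1 of those symbols alone was taken. A gene was represented by the probe set with the highest mean over the 16 arrays. Of the 44 genes, 42 were measured, among 14217 genes with such a probe set in the whole series. Rrm2 and Tpx2 had no probe set under that rule and were not analysed here. The 42 genes had 59 probe sets, and 12 genes had more than 1.

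A dividing cell passes from G1 into S phase when cyclin D and cyclin E kinases release E2F transcription factors, which switch on genes for DNA replication. Genes for G2 and mitosis follow, held off in resting cells by the DREAM repressor complex and later switched on through MYB and FOXM1. In the dorsal root ganglion (DRG), neurons are postmitotic, whereas satellite glia, Schwann cells, fibroblasts, endothelium and macrophages can divide.

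The arrays measured mRNA of DRG at levels L4 and L5 in Sprague-Dawley rats 7 days after surgery. Adult rats were males of 2 months, and young rats had been operated on at 10 days of age and were 17 days old at collection. In spared nerve injury (SNI) the common peroneal and tibial branches of the sciatic nerve were tied and cut and the sural branch was left intact, whereas in sham surgery the nerve was only exposed. Contralateral ganglia came from the uninjured side of animals with SNI, so those arrays and the SNI arrays of an age are not independent. The groups were adult SNI, adult contralateral and adult sham with 3 arrays each, and young SNI with 2, young contralateral with 2 and young sham with 3. Each array held a pool of 6 ganglia of 3 adult rats or of 8 ganglia of 4 young rats, so the spread between arrays is one between pools. The study had removed 2 further young arrays, 1 SNI and 1 contralateral, as outliers.

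Values are log2 GC-RMA, a background-corrected and quantile-normalised brightness, so a difference of 1 is a doubling. Array medians lay between 5.13 and 5.47. The mean of 11 sensory neuron markers lay between 11.71 and 13.12 over the arrays. One array stood apart. In young SNI 2 the mean of 7 markers of central nervous system glia was 10.64, against 2.66 to 3.59 in the other 15 arrays, and its sensory neuron mean was the lowest. Calls among the cell cycle genes were also made without this array. Calls among the other genes of the pathway and the cell markers were not repeated without it. The sex of the pups is not in the labels, and Xist, transcribed from the inactive X of females, was at 2.32 to 2.57 in the adult arrays. Among young arrays Xist was at 11.84 and 12.05 after SNI, 2.35 and 11.51 on the contralateral side, and 11.87, 2.36 and 9.77 after sham.

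Promoters of 6 of the genes are shown because these genes carry the results that follow, and because S phase and mitosis genes are known for short promoter words. The sequences are RefSeq's, on build GRCr8, 300 bases each that span the gene start and lie mostly before it, written from 5′ to 3′ on the strand of the gene. Capitals mark the words searched on both strands: the cell cycle homology region (CHR, TTTGAA or TTCGAA), the CCAAT box, and E2F words (TTTCCCGC, TTTCGCGC, TTTGCCGC or TTTGGCGC). In Mki67 a CHR word and a reversed CCAAT word overlap, and in Mcm6 both E2F words overlap.
Cdk1 (chr20:19265043-19265342, plus strand): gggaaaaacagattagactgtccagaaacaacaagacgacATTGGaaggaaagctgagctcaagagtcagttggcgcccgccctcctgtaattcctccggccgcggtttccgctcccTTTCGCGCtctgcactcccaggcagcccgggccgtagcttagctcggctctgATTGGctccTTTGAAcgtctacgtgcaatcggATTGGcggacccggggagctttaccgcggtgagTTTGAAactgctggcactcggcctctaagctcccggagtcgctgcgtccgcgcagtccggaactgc
Ttk (chr8:93634389-93634688, plus strand): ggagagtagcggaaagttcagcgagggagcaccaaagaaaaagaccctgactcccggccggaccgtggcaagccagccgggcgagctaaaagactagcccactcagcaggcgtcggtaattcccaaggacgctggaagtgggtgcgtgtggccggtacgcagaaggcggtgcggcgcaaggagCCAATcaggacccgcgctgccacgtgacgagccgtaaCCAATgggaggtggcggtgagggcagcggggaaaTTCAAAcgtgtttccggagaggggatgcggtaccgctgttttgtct
Cenpf (chr13:103760837-103761136, minus strand): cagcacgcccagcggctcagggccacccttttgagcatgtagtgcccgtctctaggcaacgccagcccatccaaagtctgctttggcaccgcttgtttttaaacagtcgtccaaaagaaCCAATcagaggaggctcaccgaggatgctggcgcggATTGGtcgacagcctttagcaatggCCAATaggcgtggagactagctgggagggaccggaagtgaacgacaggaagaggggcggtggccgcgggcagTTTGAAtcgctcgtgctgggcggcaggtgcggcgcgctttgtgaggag
Top2a (chr10:84473044-84473343, minus strand): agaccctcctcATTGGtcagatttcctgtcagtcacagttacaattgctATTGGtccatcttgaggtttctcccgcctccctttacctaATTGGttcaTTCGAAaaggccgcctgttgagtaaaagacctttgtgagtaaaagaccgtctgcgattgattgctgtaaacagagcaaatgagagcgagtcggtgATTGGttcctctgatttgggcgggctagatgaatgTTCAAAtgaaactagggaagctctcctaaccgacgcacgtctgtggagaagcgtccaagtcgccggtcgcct
Mki67 (chr1:199952544-199952843, minus strand): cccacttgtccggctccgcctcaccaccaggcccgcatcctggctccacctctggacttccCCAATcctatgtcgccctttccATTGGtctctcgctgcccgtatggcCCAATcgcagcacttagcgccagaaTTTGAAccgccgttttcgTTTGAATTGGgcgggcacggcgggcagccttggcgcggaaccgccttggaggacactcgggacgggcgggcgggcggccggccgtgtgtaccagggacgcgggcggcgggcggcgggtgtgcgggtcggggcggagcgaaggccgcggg
Mcm6 (chr13:42404303-42404602, minus strand): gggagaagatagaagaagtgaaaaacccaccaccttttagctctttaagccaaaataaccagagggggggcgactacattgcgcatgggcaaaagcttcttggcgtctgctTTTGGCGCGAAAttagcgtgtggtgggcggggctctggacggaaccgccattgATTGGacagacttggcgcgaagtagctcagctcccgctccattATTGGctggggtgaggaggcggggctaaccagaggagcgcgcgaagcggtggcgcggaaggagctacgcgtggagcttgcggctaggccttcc

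The 6 promoters show the words in different mixtures. Cdk1 held all 3 kinds of word, Ttk, Cenpf, Top2a and Mki67 held CHR and CCAAT words without an E2F word, and Mcm6, a replication gene, held CCAAT and E2F words without a CHR word. A promoter was found for 33 of the 44 genes. A CHR word was in 20 of them (60.6%), against 19.5% of 27457 promoters. CCAAT was in 24 (72.7%), against 37.7% of all promoters, and an E2F word in 7 (21.2%), against 2.25%. CHR and CCAAT stood together in 17 (51.5%), against 7.83% of all promoters. A match is a string of letters and not a bound site.

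The 42 genes differed in how they were detected. Of these, 19 were above log2 4 in all 16 arrays, 9 were never above it, and Bub1, Melk, Pbk and Birc5 passed it in 1 array. Mcm3, Tyms, Bub1b, Cdc20, Plk1 and Kif11 were never above 4 and spanned less than 0.5 over all arrays. For these 6 genes a small difference between groups may lie under the floor of the array and was not detectable at this signal. The mean over the 42 genes was 4.56 to 5.22 in the adult arrays and 5.04 to 5.77 in the young arrays.

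**Figure D1:**
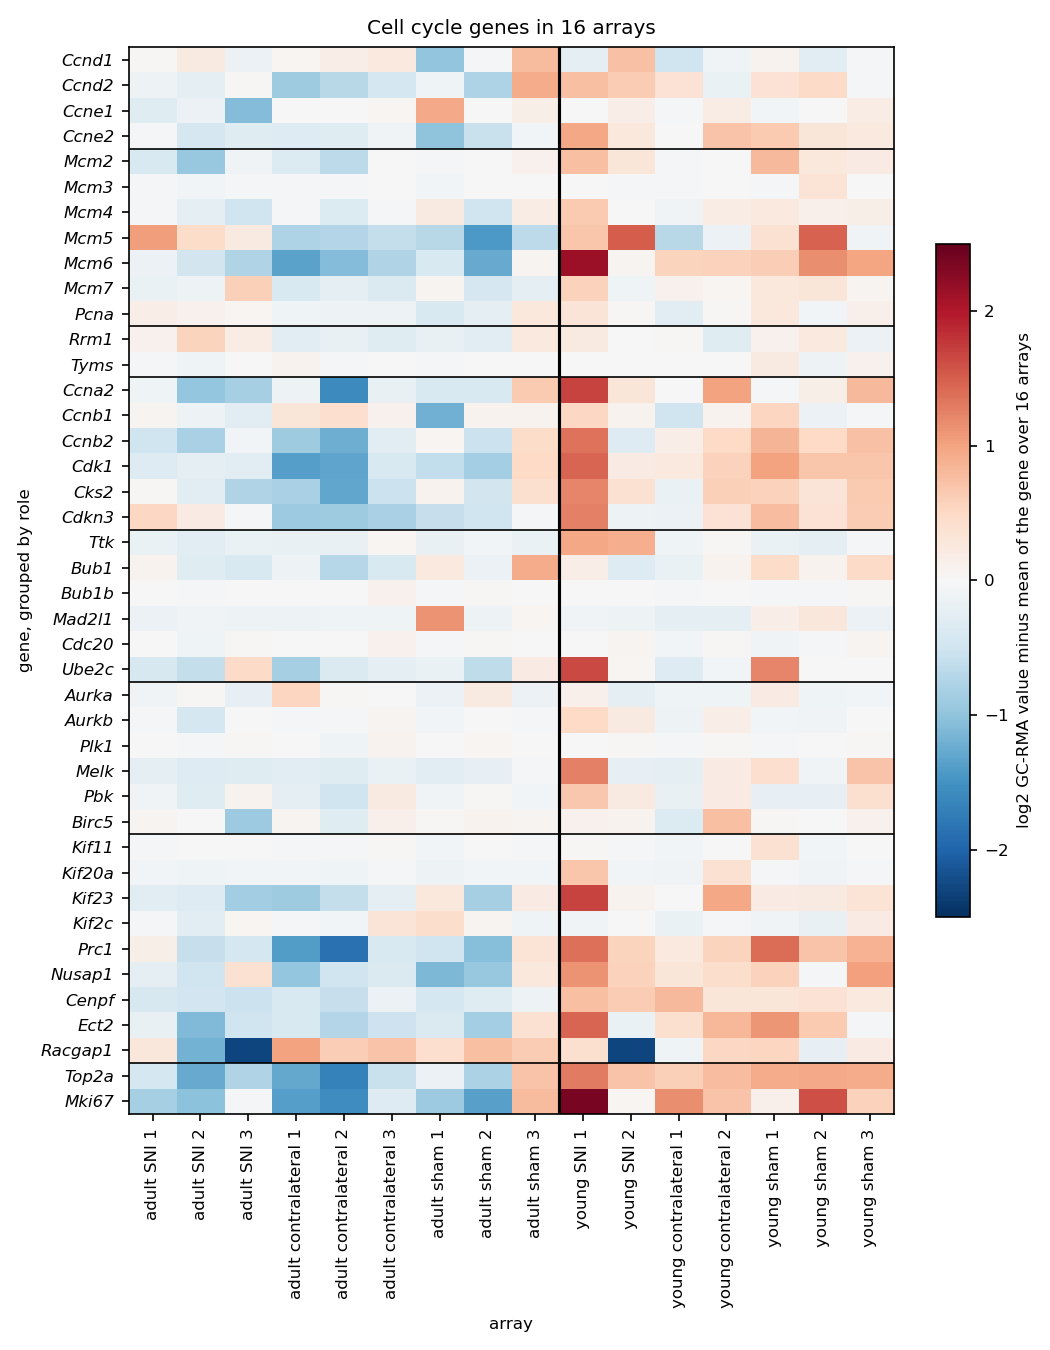
The colour of each cell is the log2 GC-RMA value of a gene in an array minus the mean of that gene over the 16 arrays, with the 42 genes grouped by role and the 9 adult arrays left of the 7 young arrays. Most rows that vary are blue in adult arrays and red in young arrays, adult sham 3 is the reddest adult array, and young SNI 1 is the highest of all 16 arrays in 20 of the 42 genes.

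Cell cycle genes were lower in adult than in young ganglia. Averaged over SNI, contralateral and sham with equal weight, 15 of the 42 genes (35.7%) were lower in adults at an adjusted p under 0.05 in limma, and 0 were higher. Of all 31042 probe sets tested, 10.6% passed in this comparison, 5.04% lower and 5.55% higher. The difference was below 0 in 35 of the 42 genes, with a median of -0.32, against 0.02 over all probe sets. It ran over a range of -1.71 (Mki67, a 3.27-fold lower value in adults) to 0.29 (Racgap1). At an unadjusted p under 0.05, 23 genes were lower (11.5% of all probe sets) and 0 higher in adults. In whole ganglia, fewer cells of a dividing type and less RNA per cell cannot be told apart.

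The count of 15 depended on single arrays and on how shared animals were treated. It was 9 without adult contralateral 1 or without adult contralateral 2, 8 without young contralateral 2, and 18 without young SNI 2, the array with central glia transcripts. With same-numbered SNI and contralateral arrays as a random block it was 5 (Cenpf, Mcm6, Prc1, Top2a and Ttk), and with Xist as a covariate it was 2 (Cenpf and Ttk). Ttk is among the 15, the 5 and the 2, but its age difference lay in SNI ganglia alone. It was -1.15 there, -0.07 in contralateral and 0.02 in sham ganglia.

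**Figure D2:**
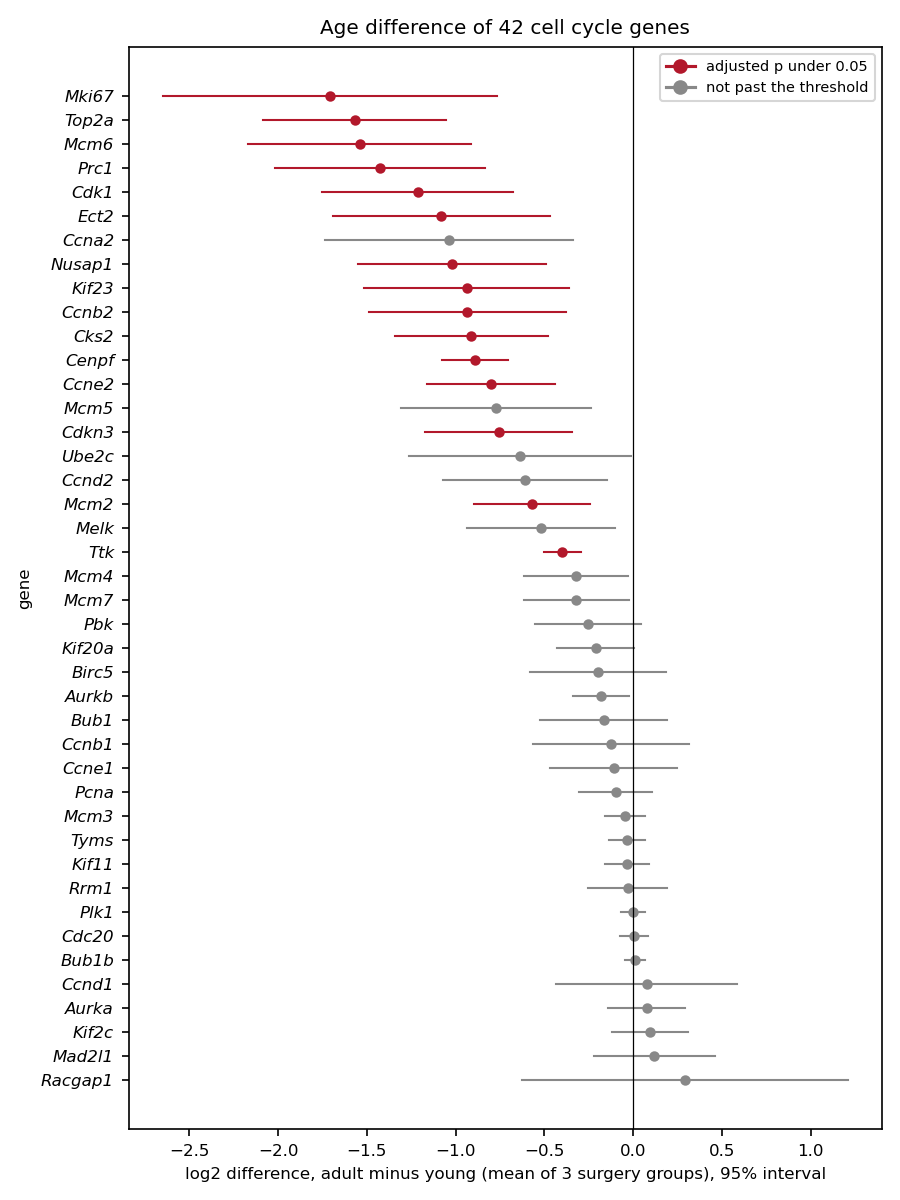
Points are log2 differences, adult minus young, averaged over the 3 surgery groups, with 95% confidence intervals (lines), for the 42 genes in order of size. The 15 genes past the threshold (red) all lie left of 0, between -1.71 for Mki67 and -0.40 for Ttk, and Ccna2, at -1.04, is the most negative gene not past it.

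The 2 genes of chromosome structure both passed, with a median difference of -1.64, the most negative of the 8 roles. Mki67 encodes the Ki-67 protein that coats mitotic chromosomes and is the standard stain for cycling cells. It was at 5.45, 5.26 and 6.24 in adult SNI, 4.91, 4.72 and 5.96 in adult contralateral and 5.37, 4.93 and 7.07 in adult sham arrays, against 8.65 and 6.33 in young SNI, 7.44 and 7.00 in young contralateral and 6.41, 7.90 and 6.85 in young sham arrays. Adult sham 3 was above 4 of the young arrays, so the ages overlapped. The difference was -1.71 (SE 0.43, adjusted p = 0.0274 in limma).

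Top2a encodes topoisomerase II alpha, which untangles sister chromatids. Its values were 5.79, 4.96 and 5.47 in adult SNI, 4.95, 4.53 and 5.68 in adult contralateral and 6.08, 5.43 and 6.95 in adult sham arrays, against 7.53 and 6.95 in young SNI, 6.83 and 7.00 in young contralateral and 7.16, 7.18 and 7.15 in young sham arrays. Only adult sham 3 reached the young range, and the 3 young sham arrays were nearly equal. The difference was -1.57 (SE 0.23, adjusted p = 0.00259), and the second probe set of the gene also passed, at -1.13 (adjusted p = 0.00154).

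**Figure D3:**
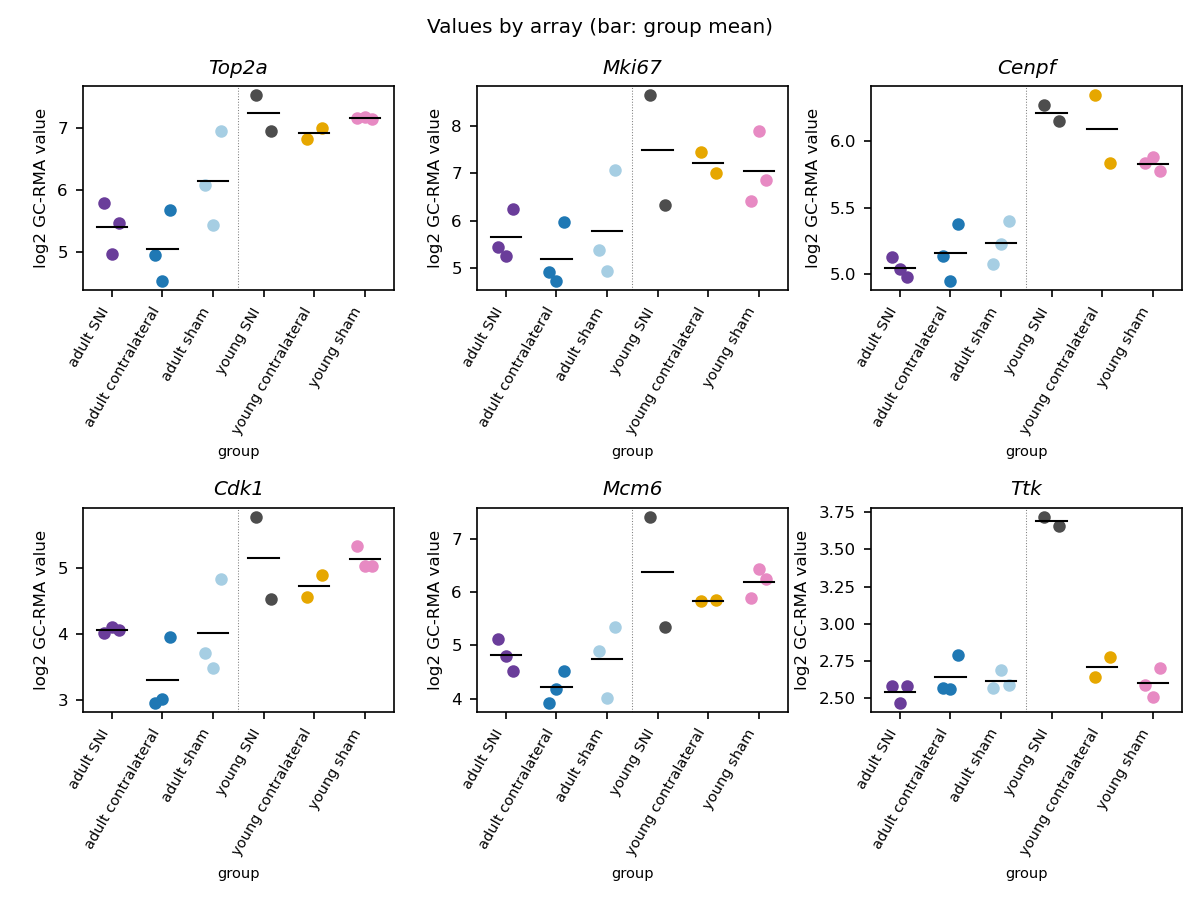
Each point is the log2 GC-RMA value of 1 array and each bar a group mean, for Top2a, Mki67, Cenpf, Cdk1, Mcm6 and Ttk, with adult groups left of young groups on axes that do not start at 0. Cenpf alone of the 6 has no overlap between ages, and Ttk stands apart only in young SNI, at 3.66 and 3.72.

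Of the cyclins of S, G2 and M phase, their kinase and its partners, 4 of 6 were lower in adults, and the median difference of the 6 was -0.92. Cdk1 is the kinase that drives entry into mitosis. It was at 4.01, 4.11 and 4.06 in adult SNI, 2.96, 3.01 and 3.96 in adult contralateral and 3.71, 3.49 and 4.83 in adult sham arrays, against 5.78 and 4.53 in young SNI, 4.57 and 4.90 in young contralateral and 5.34, 5.03 and 5.03 in young sham arrays. Adult sham 3 again lay inside the young range, and the other 8 adult arrays lay below it. The difference was -1.21 (SE 0.24, adjusted p = 0.0106).

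Ccnb2, a B-type cyclin that activates Cdk1, had values of 5.99, 5.67 and 6.42 in adult SNI, 5.60, 5.27 and 6.23 in adult contralateral and 6.53, 5.96 and 6.95 in adult sham arrays, against 7.85 and 6.17 in young SNI, 6.65 and 6.98 in young contralateral and 7.33, 6.99 and 7.23 in young sham arrays. The ages overlapped, with young SNI 2 the lowest young array. It differed by -0.93 (SE 0.25, adjusted p = 0.0385). Cks2, a small subunit of cyclin-dependent kinases, was at 6.86, 6.56 and 6.08 in adult SNI, 6.02, 5.54 and 6.29 in adult contralateral and 6.92, 6.37 and 7.23 in adult sham arrays, against 8.05 and 7.22 in young SNI, 6.67 and 7.42 in young contralateral and 7.40, 7.16 and 7.48 in young sham arrays. Adult SNI 1, sham 1 and sham 3 lay inside the young range. The difference of Cks2 was -0.91 (SE 0.20, adjusted p = 0.0143).

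Cdkn3, a phosphatase that acts on cyclin-dependent kinases, had a lowest, median and highest value of 5.46, 5.87 and 6.89 in adult arrays and 6.22, 6.74 and 7.63 in young arrays (difference -0.76, SE 0.19, adjusted p = 0.0262). Ccna2, the cyclin of S phase and G2, ranged over 4.38 to 6.62 in adult and 5.93 to 7.67 in young arrays, and its difference of -1.04 did not pass (adjusted p = 0.0618). Ccnb1 had a median of 4.46 at both ages (difference -0.12, adjusted p = 0.747), and its second probe set differed by -0.33 (adjusted p = 0.143).

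Among the 9 measured genes of the spindle, kinesins and cytokinesis, 5 were lower in adults, and the median was -0.89. Cenpf encodes a large kinetochore protein that accumulates in G2. It was at 5.13, 5.04 and 4.98 in adult SNI, 5.14, 4.95 and 5.38 in adult contralateral and 5.08, 5.23 and 5.40 in adult sham arrays, against 6.27 and 6.15 in young SNI, 6.34 and 5.83 in young contralateral and 5.83, 5.88 and 5.77 in young sham arrays. All 7 young arrays were above all 9 adult arrays. Cenpf and Ccne2 were the 2 genes of 42 with that order, which 1.37% of all probe sets had, and 0 genes had the reverse order, which 1.39% had. The difference of Cenpf was -0.89 (SE 0.09, adjusted p = 0.000247), and it passed in all 25 alternative settings that were run for it.

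Prc1 bundles the microtubules of the central spindle. Its values were 5.63, 4.89 and 5.03 in adult SNI, 4.07, 3.61 and 5.10 in adult contralateral and 4.98, 4.42 and 5.82 in adult sham arrays, against 6.86 and 6.04 in young SNI, 5.72 and 6.03 in young contralateral and 6.88, 6.18 and 6.35 in young sham arrays. Adult sham 3 alone reached the young range. The difference was -1.43 (SE 0.27, adjusted p = 0.00783).

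Nusap1, a protein of spindle microtubules, was at 4.30, 4.01 and 4.90 in adult SNI, 3.55, 4.01 and 4.15 in adult contralateral and 3.39, 3.56 and 4.78 in adult sham arrays, against 5.63 and 5.09 in young SNI, 4.82 and 4.96 in young contralateral and 5.10, 4.46 and 5.54 in young sham arrays. Adult SNI 3 and adult sham 3 lay inside the young range. It differed by -1.02 (SE 0.24, adjusted p = 0.0211), while its second probe set differed by -0.31 and did not pass (adjusted p = 0.171).

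Ect2, the exchange factor that activates RhoA for the cleavage furrow, was at 4.20, 3.29 and 3.89 in adult SNI, 4.00, 3.65 and 3.86 in adult contralateral and 4.02, 3.54 and 4.77 in adult sham arrays, against 5.84 and 4.21 in young SNI, 4.78 and 5.21 in young contralateral and 5.49, 5.04 and 4.36 in young sham arrays. The highest adult array was again sham 3. The difference was -1.08 (SE 0.28, adjusted p = 0.0304). Kif23, a kinesin of the central spindle, was at 3.01, 2.94 and 2.39 in adult SNI, 2.38, 2.67 and 3.05 in adult contralateral and 3.53, 2.43 and 3.47 in adult sham arrays, against 4.96 and 3.35 in young SNI, 3.28 and 4.23 in young contralateral and 3.48, 3.49 and 3.61 in young sham arrays. Kif23 was above 4 in 2 arrays, both young. It differed by -0.94 (SE 0.26, adjusted p = 0.0435), but its second probe set differed by 0.07 (adjusted p = 0.548).

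The other 4 genes of this role did not pass. Kif20a, Kif2c and Kif11, mitotic kinesins, differed by -0.21, 0.10 and -0.04, and the second probe set of Kif11 by -0.33 (adjusted p = 0.108). Racgap1, the partner of Kif23 in the centralspindlin complex, had the most positive difference of the 42 genes, 0.29 (SE 0.42, adjusted p = 0.726). Its values spread widely within SNI, as given with the injury comparisons.

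Among the 7 replication genes 2 were lower in adults, and the median was -0.32. The Mcm genes encode the ring that unwinds DNA at replication forks. Mcm6 was at 5.13, 4.81 and 4.52 in adult SNI, 3.93, 4.18 and 4.53 in adult contralateral and 4.89, 4.02 and 5.35 in adult sham arrays, against 7.41 and 5.35 in young SNI, 5.83 and 5.85 in young contralateral and 5.89, 6.43 and 6.25 in young sham arrays. The highest adult array and the lowest young array had the same value, 5.35. The difference was -1.54 (SE 0.29, adjusted p = 0.00742).

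Mcm2 had a lowest, median and highest value of 4.24, 5.10 and 5.29 in adult arrays and 5.16, 5.44 and 5.99 in young arrays, a difference of -0.57 (SE 0.15, adjusted p = 0.0322). The other subunits did not pass: Mcm5 differed by -0.77 (adjusted p = 0.0674), Mcm4 and Mcm7 by -0.32 each (adjusted p = 0.165 and 0.171), and Mcm3, always below 2, by -0.05. Pcna, the sliding clamp of DNA polymerase, was at 10.36 to 10.99 in adult and 10.48 to 11.05 in young arrays, a difference of -0.10 with a 95% interval of -0.30 to 0.11. Rrm1, the large subunit of ribonucleotide reductase, differed by -0.03 (interval -0.25 to 0.19), and Tyms, thymidylate synthase, by -0.04 at values below 3.

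Of the 4 cyclins of G1 and its exit, Ccne2 was lower in adults. Ccne2, an E-type cyclin that starts S phase, was at 5.14, 4.77 and 4.89 in adult SNI, 4.88, 4.89 and 5.11 in adult contralateral and 4.19, 4.63 and 5.12 in adult sham arrays, against 6.17 and 5.46 in young SNI, 5.18 and 5.90 in young contralateral and 5.85, 5.49 and 5.43 in young sham arrays. Every young array was above every adult array, with 5.14 the highest adult and 5.18 the lowest young value. The difference was -0.80 (SE 0.16, adjusted p = 0.0115), and its second probe set was flat, at 0.00 (adjusted p = 0.985). Ccne1, its paralog, differed by -0.11 (adjusted p = 0.734).

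The D-type cyclins link growth signals to the cell cycle. Ccnd2 differed by -0.61 and did not pass (adjusted p = 0.093). The 3 probe sets of Ccnd1 differed by 0.08, 0.35 and 0.65, and none passed.

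Few genes of the spindle checkpoint and of the mitotic kinases passed, and most of them lay near the array floor. In the checkpoint and anaphase-promoting complex 1 of 6 genes, Ttk, passed, and the median was -0.08. Ube2c, the ubiquitin carrier of the anaphase-promoting complex, differed by -0.64 (adjusted p = 0.196), with its 2 highest values, 5.25 and 4.82, in young SNI 1 and young sham 1. Bub1 differed by -0.17, and Mad2l1, Bub1b and Cdc20 by 0.12, 0.01 and 0.00. Of the 6 mitotic kinases and their passenger, 0 passed in limma, the median was -0.19, and 2 were lower at an unadjusted p under 0.05, Melk (-0.52, adjusted p = 0.110) and Aurkb (-0.18, adjusted p = 0.147). Aurkb and Plk1, at up to 3.73 and 2.21, were never above 4, nor were Ttk, Bub1b and Cdc20. Bub1, Melk, Pbk and Birc5 passed 4 in 1 array. For these genes a difference between ages may lie under the floor.

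Ttk, also called Mps1, is the kinase that starts the spindle checkpoint. It was at 2.58, 2.47 and 2.58 in adult SNI, 2.57, 2.56 and 2.79 in adult contralateral and 2.57, 2.69 and 2.59 in adult sham arrays, against 3.72 and 3.66 in young SNI, 2.64 and 2.78 in young contralateral and 2.59, 2.51 and 2.70 in young sham arrays. Both young SNI arrays stood above the other 14, which overlapped between ages. The age difference averaged over surgery groups was -0.40 (SE 0.05, adjusted p = 0.000782). It came to -1.15 in SNI, -0.07 in contralateral and 0.02 in sham ganglia.

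The age comparison was then made within each kind of surgery, where fewer arrays carry each value. In SNI ganglia 3 of 42 genes were lower in adults, where 2.64% of all probe sets passed: Ttk (-1.15, adjusted p = 0.000128), Cenpf (-1.16, adjusted p = 0.0051) and Top2a (-1.83, adjusted p = 0.0462). With same-numbered SNI and contralateral arrays as a random block 2 passed, Ttk and Cenpf, and Top2a did not (adjusted p = 0.0599). Top2a also failed to pass without any 1 of 13 of the 16 arrays, with array weights, with Xist as a covariate and with p adjusted over all 9 comparisons, whereas its second probe set differed by -1.82 in SNI (adjusted p = 0.00875). The difference was below 0 in 41 of 42 genes, with a median of -0.54, and 19 were lower at an unadjusted p under 0.05, against 8.4% of all probe sets. Without young SNI 2, 5 genes passed, and these were Ttk, Cenpf, Mcm6 (-2.59, adjusted p = 0.0229), Melk (-1.54, adjusted p = 0.0218) and Kif20a (-0.78, adjusted p = 0.0226), with 1 young SNI array left, assumed to vary like the other groups.

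On the contralateral side 1 gene passed, Cenpf (-0.93, adjusted p = 0.0451), where 0.177% of all probe sets did. This call was lost without any 1 of 10 of the 16 arrays, and with the same-numbered SNI and contralateral arrays as a random block. Of the 42 genes 31 were below 0, with a median of -0.24, and 12 were lower at an unadjusted p under 0.05, against 5.91% of all probe sets. Top2a and Cdk1 differed by -1.86 (adjusted p = 0.131) and -1.43 (adjusted p = 0.267). The second probe set of Top2a differed by -0.52 here (adjusted p = 0.628 in limma).

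In sham ganglia, which share no animals with injured ones, 0 genes passed in limma, where 0.622% of all probe sets did. The difference was below 0 in 32 of 42 genes, with a median of -0.24. At an unadjusted p under 0.05, 9 genes were lower and 0 higher, against 6.45% lower over all probe sets. Cenpf had the lowest adjusted p (-0.59, adjusted p = 0.0867). Of the 15 genes that passed in the average, 14 were below 0 in sham, 15 on the contralateral side and 15 in SNI. The 15 were chosen on the average of these same differences, which largely fixes their signs, so these counts are no separate evidence.

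Markers of other cells differed with age as well, where 5.04% of all probe sets were lower and 5.55% higher in adults. In the average over surgery groups, 5 of 9 fibroblast and matrix markers were lower in adults (Col1a2, Col3a1, Col5a1, Pdgfra and Postn), with array means of 10.06 to 12.06 in adult and 11.61 to 12.51 in young arrays. Of 7 measured Schwann cell markers 3 were lower (Egr2, Mag and Sox10), with array means of 10.99 to 12.14 in adult and 11.99 to 12.62 in young arrays. Mag was at 12.22 in young SNI 2, against 9.17 to 9.94 in the other young arrays. Sox10 was at 11.28 there, against 10.32 to 10.68. The marker calls were not repeated without that array. Adult sham 3, the adult array highest among adults in 16 of the 42 cell cycle genes, also had the highest fibroblast mean of the adult arrays. It was highest among adults as well for endothelial (7.98), satellite glia (10.10) and central glia markers (3.59), and in array median (5.39). For Schwann cell, macrophage, erythroid, lymphocyte and sensory neuron markers another adult array was highest. The part of cell composition in the age difference was not tested.

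Of the other marker lists, 1 of 7 satellite glia (Glul) and 1 of 7 endothelial markers (Tie1) were lower. Glul too was highest in young SNI 2, at 12.94. Among 10 macrophage markers Cd68 was higher and Mrc1 lower. The ages stood apart for Cd68 in SNI ganglia only, at 3.49, 5.05 and 4.61 in adult and 2.23 and 2.11 in young arrays. In sham ganglia Cd68 overlapped between ages, at 2.57, 2.08 and 3.24 in adult and 2.61, 2.65 and 1.71 in young arrays. On the contralateral side Cd68 overlapped too, at up to 2.05 in adult and 1.71 in young arrays. Aqp4 was lower among 7 markers of central glia, whose mean was high in young SNI 2 only. By limma 0 of 11 sensory neuron, 0 of 5 erythroid and 0 of 7 lymphocyte markers passed, and the lymphocyte markers averaged 2.73 to 2.92 in every array.

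**Figure D4:**
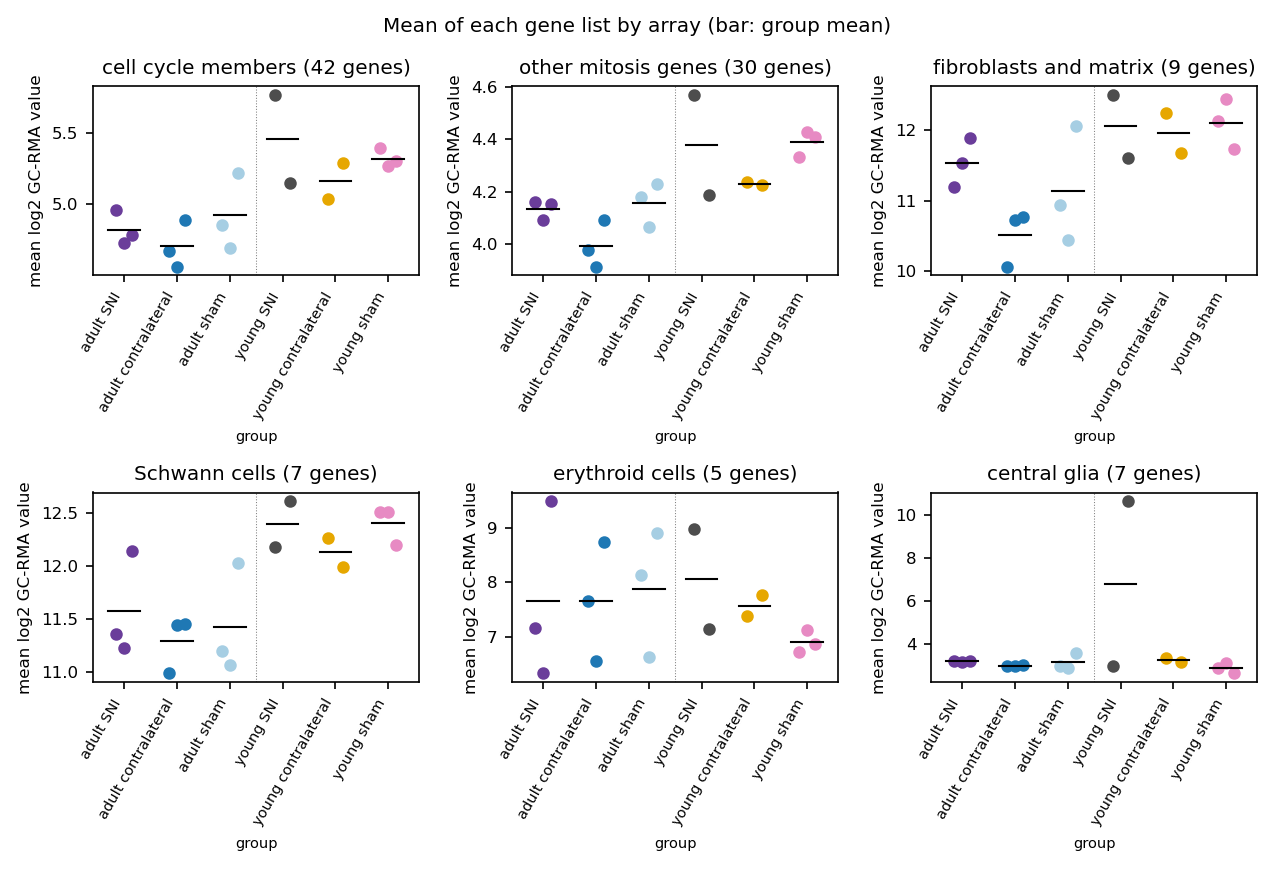
Points are array means of log2 GC-RMA values over the genes of a list and bars are group means, with adult groups left of young groups, on axes that do not start at 0. The 42 cell cycle genes, 30 other mitosis genes and the fibroblast and Schwann cell markers sit higher in most young arrays, adult sham 3 is the adult array nearest to them except for Schwann cells (adult SNI 3), and central glia markers reach 10.64 in young SNI 2 alone.

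The 2 young arrays low in Xist, young sham 2 and young contralateral 1, were above the adult median in 26 and 21 of the 42 genes. The 5 young arrays with high Xist were above it in 32 (sham 1), 37 (sham 3), 35 (contralateral 2), 35 (SNI 1) and 33 (SNI 2). Over all probe sets the shares above the adult median were 35.5% and 35.8% in the 2 arrays low in Xist, and 33.5% to 63.6% in the others. Counts of genes above every adult array overlapped, at 12 and 5 in the arrays low in Xist. They were 18, 16, 16, 25 and 8 in the others, in the same order. Over all probe sets these shares were 14.1% and 14.7%, against 9.54% to 14.2%. Age and sex of the pools are in part mixed, since all adult pools were male.

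At each age SNI was compared with sham surgery and with the uninjured side. The 2 comparisons of an age share the SNI arrays. In adults 0 of 42 genes passed in limma against sham, where 0.48% of all probe sets did, and 0 passed against the contralateral side, where 1.03% did. The medians were -0.06 and -0.01 (all probe sets, -0.02 and -0.04). At an unadjusted p under 0.05, 3 genes differed against sham (7.33% of all probe sets) and 4 against the contralateral side (9.83%).

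Mcm5 had the largest positive difference in adult SNI. It was at 5.55, 4.96 and 4.73 in adult SNI, 3.73, 3.76 and 3.91 in adult contralateral and 3.81, 3.06 and 3.85 in adult sham arrays. The 3 SNI arrays were above all 6 others. The difference was 1.51 against sham (SE 0.39, adjusted p = 0.190) and 1.28 against the contralateral side (SE 0.39, adjusted p = 0.224). In young ganglia Mcm5 was at 5.20 and 6.02 in SNI, 3.80 and 4.35 in contralateral and 4.88, 5.98 and 4.41 in sham arrays, where SNI and sham overlapped.

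Cdkn3 was at 6.89, 6.57 and 6.33 in adult SNI, against 5.46, 5.48 and 5.56 in adult contralateral and 5.79, 5.87 and 6.34 in adult sham arrays. SNI was above every contralateral array and overlapped sham. Against the contralateral side it differed by 1.10 (SE 0.30, adjusted p = 0.159), and Rrm1 by 0.54 (adjusted p = 0.214). Adult SNI and contralateral arrays of the same number deviated together. With that pairing as a random block, 3 genes passed against the contralateral side: Rrm1 (adjusted p = 0.0251), Mcm5 (adjusted p = 0.0311) and Cdkn3 (adjusted p = 0.0466). Cdkn3 passed also with adult arrays alone (adjusted p = 0.0408).

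Racgap1 went the other way. It was at 7.67, 6.21 and 5.10 in adult SNI, 8.39, 8.00 and 8.10 in adult contralateral and 7.80, 8.13 and 8.02 in adult sham arrays. All 3 SNI arrays were below the other 6, but they were far apart. The difference was -1.66 against sham (SE 0.67, adjusted p = 0.568) and -1.84 against the contralateral side (SE 0.67, adjusted p = 0.343). Its second probe set differed by -1.10 (adjusted p = 0.492 in limma) and -1.18 (adjusted p = 0.306). In young ganglia the SNI arrays were at 7.78 and 5.10, against 7.27 and 7.91 in contralateral and 7.93, 7.18 and 7.59 in sham arrays, and the low array was young SNI 2. Against young sham the difference was -1.13 (adjusted p = 0.924 in limma), and the second probe set did not follow, at 0.06 (adjusted p = 0.991). Ccne1, the third gene with an unadjusted p under 0.05 against sham, differed by -0.87 (adjusted p = 0.300).

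The proliferation markers gave no call in adult SNI. Mki67 differed by -0.14 against sham (95% interval -1.65 to 1.37) and by 0.45 against the contralateral side (interval -1.06 to 1.96). Top2a differed by -0.75 (interval -1.57 to 0.08) and 0.35 (interval -0.47 to 1.18), and Cdk1 by 0.05 (interval -0.81 to 0.91) and 0.75 (interval -0.11 to 1.61). These intervals hold doublings in either direction for Mki67, so a change of that size was not detectable with 3 pools a group.

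In young rats 1 of 42 genes, a set chosen with earlier results of these data known, rose after SNI, and it was Ttk in both comparisons. Against sham it was higher by 1.09 (SE 0.08, adjusted p = 0.000656), where 0.0161% of all probe sets passed, and against the contralateral side by 0.98 (SE 0.09, adjusted p = 0.00363), where 0.00966% did. Without young SNI 2 the differences were 1.12 (adjusted p = 0.00134) and 1.01 (adjusted p = 0.00541). In the young arrays fitted alone the adjusted p was 0.979 against sham and 1 against the contralateral side. The second probe set of Ttk did not follow, at 2.67 to 2.70 in young SNI and 2.63 to 2.80 in the other 14 arrays (adjusted p = 0.991 against sham). Ttk stayed under log2 4 in every array. Both young SNI arrays were high in Xist, and young sham 1 and young contralateral 2, high in Xist as well, had Ttk at 2.59 and 2.78. With Xist as a covariate, an alternative chosen after seeing the data, Ttk was higher by 1.03 against sham (adjusted p = 0.00381) and by 0.91 against the contralateral side (adjusted p = 0.0244).

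At an unadjusted p under 0.05, 3 genes differed from sham (5.91% of all probe sets), Ttk, Aurkb (0.41, adjusted p = 0.837) and Cenpf (0.38, adjusted p = 0.837). Likewise 3 differed from the contralateral side (5.94%), Ttk, Mcm5 (1.54) and Aurkb (0.34). Aurkb, the kinase of the chromosomal passenger complex, was at 3.73 and 3.46 in young SNI, 3.11 and 3.41 in young contralateral and 3.17, 3.14 and 3.25 in young sham arrays. Both young SNI arrays were above the other 5, all below 4. The medians over the 42 genes were 0.07 for SNI minus sham, with 31 genes above 0, and 0.27 for SNI minus contralateral, with 38 above 0. Young SNI 1 was the highest of all arrays in 20 genes and young contralateral 1 the lowest young array in 18.

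Whether adult and young ganglia responded unequally was tested on SNI minus the mean of sham and contralateral, adult minus young. Ttk alone passed (-1.12, SE 0.10, adjusted p = 0.00216), where 0.0966% of all probe sets did. Aurkb came next (-0.52, adjusted p = 0.432). Mki67 and Top2a gave -0.20 (95% interval -2.23 to 1.83) and -0.40 (interval -1.51 to 0.72). The second probe set of Top2a gave -1.05 (interval -1.77 to -0.32), which did not pass (adjusted p = 0.465), and in young rats it differed by 1.20 between SNI and the contralateral side (adjusted p = 0.798).

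**Figure D5:**
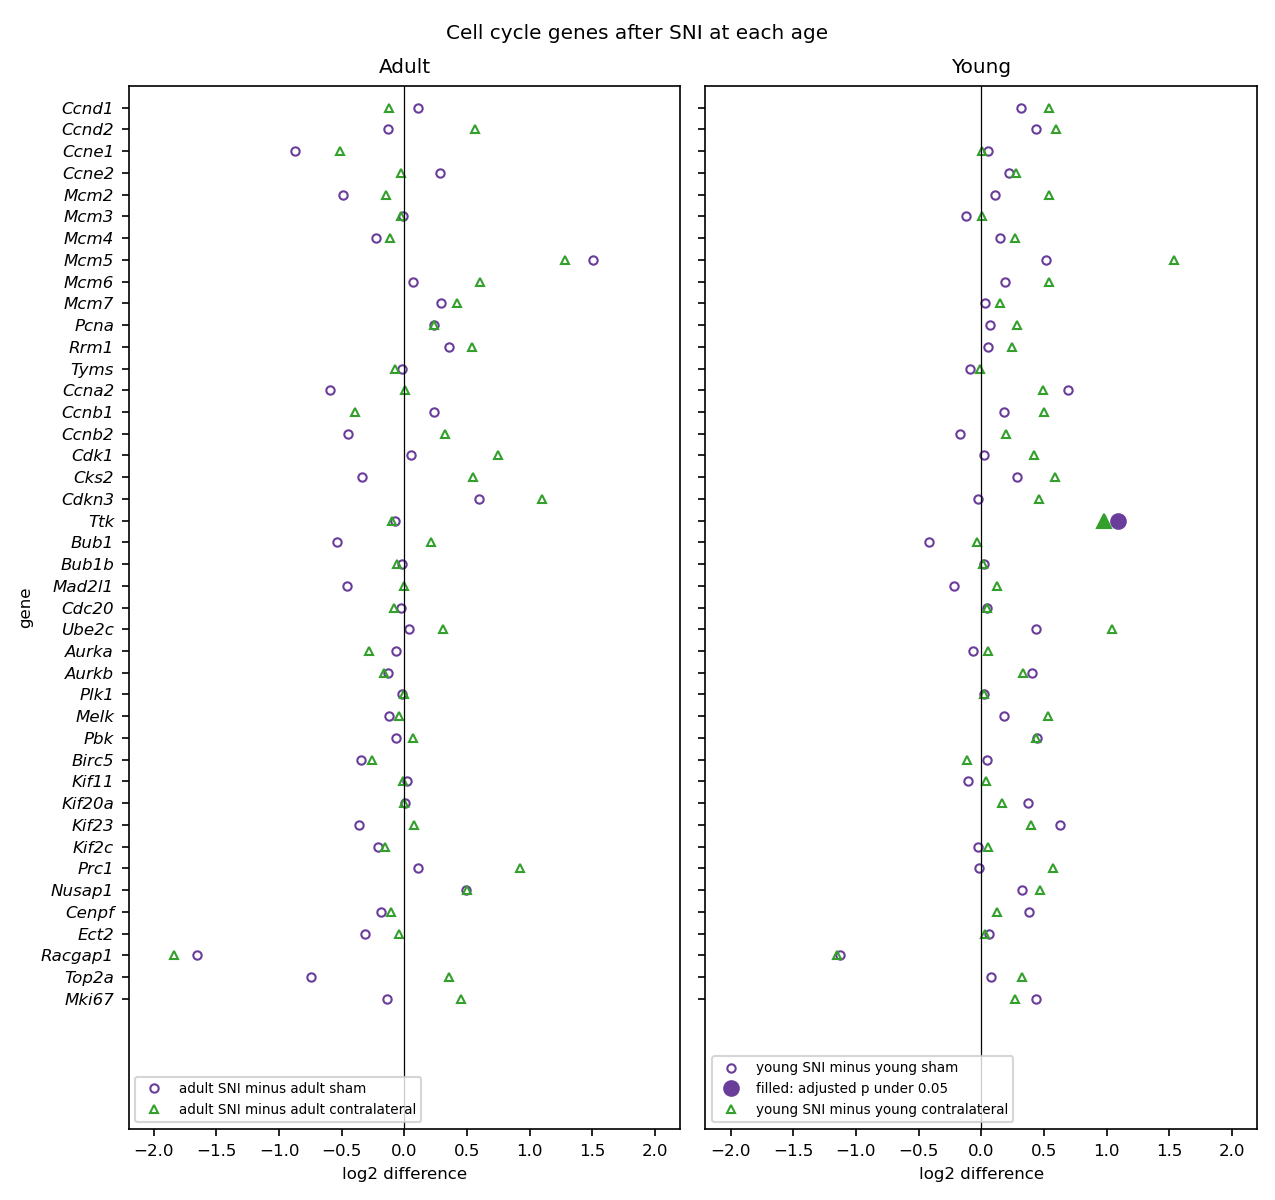
Points are log2 differences of SNI against sham (circles) and against the contralateral side (triangles) for the 42 genes in adult (left) and young (right) ganglia, with filled signs for an adjusted p under 0.05. Ttk in young ganglia, at 1.09 and 0.98, has the only filled signs, while Mcm5 lies farthest right and Racgap1 farthest left in adults.

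Other genes of the pathway were read from lists chosen by function. The median of 30 other mitosis genes measured was -0.18 in the average over surgery groups. In adults 0 were higher (5.55% of all probe sets) and 3 were lower (5.04%). They were Kif15, a spindle kinesin (-1.16, adjusted p = 0.00911), Cdca3, a trigger of mitotic entry (-1.05, adjusted p = 0.00546), and Nuf2, of the kinetochore (-0.73, adjusted p = 0.0163). For 32 other S phase genes the median was 0.01, and 1 was lower, where 5.04% of all probe sets were. This gene was Ezh2, the histone methyltransferase (-1.04, adjusted p = 0.00741 in limma).

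After SNI in adults 1 of the 30 other mitosis genes rose, in both comparisons, and it is not among the 42. Kif22, a kinesin that binds chromosomes, was at 8.22, 8.97 and 8.90 in adult SNI, against 5.17, 5.61 and 5.39 in adult contralateral and 6.71, 6.24 and 6.26 in adult sham arrays. The 3 SNI arrays were above the other 6 adult arrays. Kif22 was higher by 2.29 than in sham (SE 0.35, adjusted p = 0.0197) and by 3.31 than on the contralateral side (SE 0.35, adjusted p = 0.00259). In young ganglia Kif22 differed by -0.14 from sham (adjusted p = 0.988) and by 0.76 from the contralateral side (adjusted p = 0.821). The test between ages gave 2.49 for Kif22 (SE 0.47) and did not pass (adjusted p = 0.0955).

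Of 15 cell cycle inhibitors 1 was lower (5.04% of all probe sets) and 1 higher (5.55%) in adults. Cdkn1c, encoding p57, an inhibitor active during development, was at 7.85, 8.05 and 8.45 in adult SNI, 6.91, 7.40 and 7.71 in adult contralateral and 8.86, 7.47 and 8.55 in adult sham arrays, against 9.97 and 10.73 in young SNI, 10.88 and 9.34 in young contralateral and 9.08, 10.00 and 8.99 in young sham arrays. Every young array was above every adult array, and the difference was -2.02 (SE 0.29, adjusted p = 0.00222). Cdkn2a, the locus of p16 and p19Arf, was higher in adults by 0.97 (adjusted p = 0.0145).

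After SNI in adults 2 of the 15 inhibitors rose against the contralateral side, where 1.03% of all probe sets passed. Cdkn1a, encoding p21, was at 8.43, 8.34 and 8.99 in adult SNI, against 5.13, 5.41 and 6.57 in adult contralateral arrays (2.88, adjusted p = 0.0355). Gadd45a, a stress-induced partner of Pcna, was at 12.08, 12.39 and 12.21 in adult SNI, against 9.57, 9.54 and 9.36 in adult contralateral arrays (2.74, adjusted p = 0.0211). Neither group of values overlapped. Against sham the differences were 2.00 (adjusted p = 0.242 in limma) and 2.43 (adjusted p = 0.0574). In young rats 0 of the 15 passed against sham or the contralateral side in limma. There 1 and 0 had an unadjusted p under 0.05 (5.91% and 5.94% of all probe sets).

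Markers of other cells moved with SNI in adults as well, where 1.03% of all probe sets passed against the contralateral side. Of 10 macrophage markers 4 rose against the contralateral side, Cd68 (2.56, adjusted p = 0.0133), Csf1r (2.26, adjusted p = 0.0390), Mrc1 (2.19, adjusted p = 0.0317) and Tyrobp (1.82, adjusted p = 0.0168), and the median of the 10 was 1.74. Against sham 0 of them passed in limma, with a median of 0.96. Of the 10, 6 were higher at an unadjusted p under 0.05, where 7.33% of all probe sets differed. The mean of the 10 macrophage markers was 5.59 to 5.94 in adult SNI, against 4.36 to 4.42 in adult contralateral and 4.60 to 5.14 in adult sham arrays, which did not overlap SNI. Of 9 fibroblast and matrix markers 0 passed in limma against the contralateral side, and the median was 0.88. Of the 9, 6 were higher at an unadjusted p under 0.05, where 9.83% of all probe sets differed. The part of these cells in the values of Mcm5, Cdkn3, Kif22, Cdkn1a and Gadd45a was not tested.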

How the data were processed

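Messenger RNA of 16 pools was hybridised to Affymetrix rat genome arrays. The authors background-corrected and normalised the scans with GC-RMA and deposited log2 values per probe set, which were used as they stand, and 2 of 18 arrays had been removed by the authors. Array values carry no read depth, so the number of pools and the background limit the precision. In all, 31042 probe sets were tested, with 57 controls left out. The platform annotation gave 1 gene symbol for 20826, several for 436 and none for 9780. The 44 members, the lists and the markers were chosen with earlier results of these data known.

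All 16 arrays entered 1 fit with 6 group means in limma 3.58.1 (R 4.3.3), with empirical Bayes variances (prior degrees of freedom 1.24), and p was adjusted by Benjamini-Hochberg over all probe sets tested, in each of 9 comparisons, at 0.05. The fit was tested on simulated data. Age differences are adult minus young. Values by array are given for the 12 members with the largest age difference among those that passed and for Ttk, and of each other list of the pathway up to 4 genes with the smallest p are named. Mcm5, Cdkn3, Racgap1 and Aurkb, and in the other lists Kif22, Cdkn1a and Gadd45a, were singled out after their values were seen. Across the arrays, deviations from group means of adult SNI and contralateral arrays of the same number correlated at 0.449, 0.445 and 0.362. In young arrays the correlation was 0.151 for both numbers, which are equal by construction with 2 arrays a group. The labels do not give the pairing. The random block treated the same numbers as pairs at both ages, so its counts rest on that assumption. Promoter words were counted in RefSeq promoters with Python 3.11.15. Alternatives were an intensity trend, a filter on low values (above log2 4 in at least 2 arrays), array weights, quantile normalisation, replicate blocks, the mean of all probe sets of a gene, Xist as a covariate, arrays of 1 age, p adjusted over all 9 comparisons, and leaving out each array.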

Additional observations from a re-analysis of the deposited data

Results flagged for a closer look

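The response of Ttk to SNI differed between ages by a test of the difference itself, at -1.12 on the log2 scale for the adult response minus the young response (SE 0.10, adjusted p = 0.00216 in limma). Its values were 2.47 to 2.58 in the 3 adult SNI arrays and 3.66 and 3.72 in the 2 young SNI arrays, all under log2 4. The second probe set of the gene was at 2.67 to 2.70 in young SNI arrays and 2.63 to 2.80 in the other 14 arrays. Which of the 2 probe sets reports the transcript was not tested.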

How the results depend on the processing

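No member that passed turned its direction in these alternatives, nor did the median of the age average. Direction was not followed for members that did not pass or for the other lists. Of the 15 members lower in adults in the average, 5 passed with same-numbered SNI and contralateral arrays as a random block, 2 with Xist as a covariate and 7 with p adjusted over all 9 comparisons, and leaving out each array gave 8 to 18. The median over the 42 members, -0.32, was -0.76 among members that pass the filter on low values, by its construction, since that filter leaves out 13 members, and -0.42 to -0.21 when arrays were left out. In SNI the 3 calls were 1 with array weights and 2 to 5 with arrays left out. On the contralateral side the 1 call was 0 with an intensity trend, a replicate block or the random block, 5 with array weights, and 0 to 1 with arrays left out. In sham the 0 calls were 1 with quantile normalisation or Xist (Cenpf) and 0 to 1 with arrays left out (Cdkn3, without young SNI 1 or 2).

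Of adult SNI against the contralateral side, the 0 calls by limma (4 at an unadjusted p under 0.05) were 2 with array weights (Mcm5 and Cdkn3), 3 with the random block, 1 with adult arrays alone, and 0 to 1 with arrays left out. Against sham they were 0 with any 1 array left out (3 at an unadjusted p under 0.05). The 1 young call, Ttk, was 0 in both comparisons under the filter on low values, which removes Ttk, and with young arrays alone, and 0 against the contralateral side with the mean of its probe sets (0.49, adjusted p = 0.158). It was 1 in both with any 1 array left out. The 1 call between responses was 0 with that filter and 1 to 2 with arrays left out (Cdkn3, without young SNI 1). Causes were not tested. The replicate block gave 15 members in the average, 14 of them among the 15, and changed no other count apart from the contralateral call given above. Signals near the array floor and 2 young pools in each of 2 groups limit these values.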
